A study of Drosophila melanogaster with 3 samples.

Results

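The adhesion and axon guidance genes of the mushroom body lobes described here are 10 genes chosen by name, out of 17824 features in the count matrices: Fas2, Nrg, Dscam1, Lac, crb, dlp, drl, robo2, robo3 and trio. All 10 are present in each of 3 single-cell libraries, and each has 1 entry per cell type in the 4 tables of mutant or drug against control that accompany them. Kenyon cells (KCs) are the intrinsic neurons of the mushroom body. They were labelled with nuclear GFP under the Mef2(P247)-gal4 driver, sorted by FACS from dissociated central brains and profiled with 10x Genomics droplet libraries. The first library was a pool of flies aged 4 to 6 days: dSERT-TMKO and WT flies, flies fed citalopram (CIT) and flies fed the vehicle (VEH). The second held homozygous dSERT16 and dSERT4 flies at day 0, the day of eclosion, and the third held homozygous dSERT-TMKO and WT flies at day 0. In dSERT16 the 5' end of SerT, the serotonin transporter gene, is deleted, dSERT4, its background-matched control, carries a smaller deletion there, and dSERT-TMKO is a CRISPR deletion of the part that codes for the first transmembrane domains, outcrossed to w1118, the source of the WT allele. CIT and VEH flies carried WT dSERT. Flies of each replicate line carried chromosomes of a different wild-type DGRP strain. All flies of an experiment were pooled before dissociation, and cells were not traced to strains here. Each library therefore counts as 1 sample in which mutant and control cells are mixed, and SerT genotypes were not compared.

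Axons of KCs form lobes, and the 3 main subtypes are named after the lobes that they fill. γ KCs are born first and prune and regrow a single medial branch at metamorphosis, α'/β' KCs follow, and α/β KCs are born last; axons of α'/β' and α/β KCs bifurcate into a vertical and a medial branch. Adhesion molecules at the axon surface hold fascicles of like axons together, whereas guidance receptors read Slit, Wnt and semaphorin ligands and act on the actin cytoskeleton. Antibodies against Fasciclin II, encoded by Fas2, and against Trio are the classical stains that tell the lobes apart.

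Cells with at least 1000 transcripts (UMIs) and at most 20% mitochondrial UMIs were clustered within each library, without the 10 genes and without 71 further adhesion and guidance genes among the variable genes. KC subtypes were named from markers that are not members. The day 4 to 6, dSERT4/dSERT16 and dSERT-TMKO/WT pools gave 137, 190 and 116 α'/β' KCs, 1499, 1880 and 1459 γ KCs, and 1293, 950 and 604 α/β KCs. KCs made up 98.6%, 91.7% and 25.6% of clustered cells in these libraries, so the sort label did not hold for the dSERT-TMKO/WT pool, in which 4928 cells were glia-like and 1055 had no name. The dSERT4/dSERT16 pool held 162 glia-like cells and the day 4 to 6 pool none. Other neurons numbered 41, 112 and 361. Median depth per KC was 7113, 3282.5 and 6975 UMIs. Pairs of libraries shared between 1 and 11 cell barcodes. Ribosomal protein genes took 6.59% to 7.46% of UMIs of the KC subtypes in the day 4 to 6 pool and 6.25% to 8.69% in the dSERT-TMKO/WT pool, against 3.38% to 3.87% in the dSERT4/dSERT16 pool.

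Levels below are CPM, the UMIs of a gene summed over a class of cells and scaled to a common total of 1e6. Subtypes were compared with edgeR's quasi-likelihood test on 9 sums (3 subtypes in 3 libraries) with the library as a block, over 6852 genes. A gene is called different where it changed by a fold of 1.5 or more with a Benjamini-Hochberg adjusted p no higher than 0.05. Errors of means are SDs over the 3 libraries. The SE of a log2 fold change is its absolute value over the square root of the F statistic of the test. Each pool is 1 sample. With the library as a block, the p-values measure only how much the differences between subtypes varied across these 3 pools. They do not allow for subtypes having been defined from other genes of the same cells. In the annotation (BDGP6, the dm6 assembly) no member shares its strand with another gene, except robo2, which overlaps lncRNA:CR44898.

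**Figure D1:**
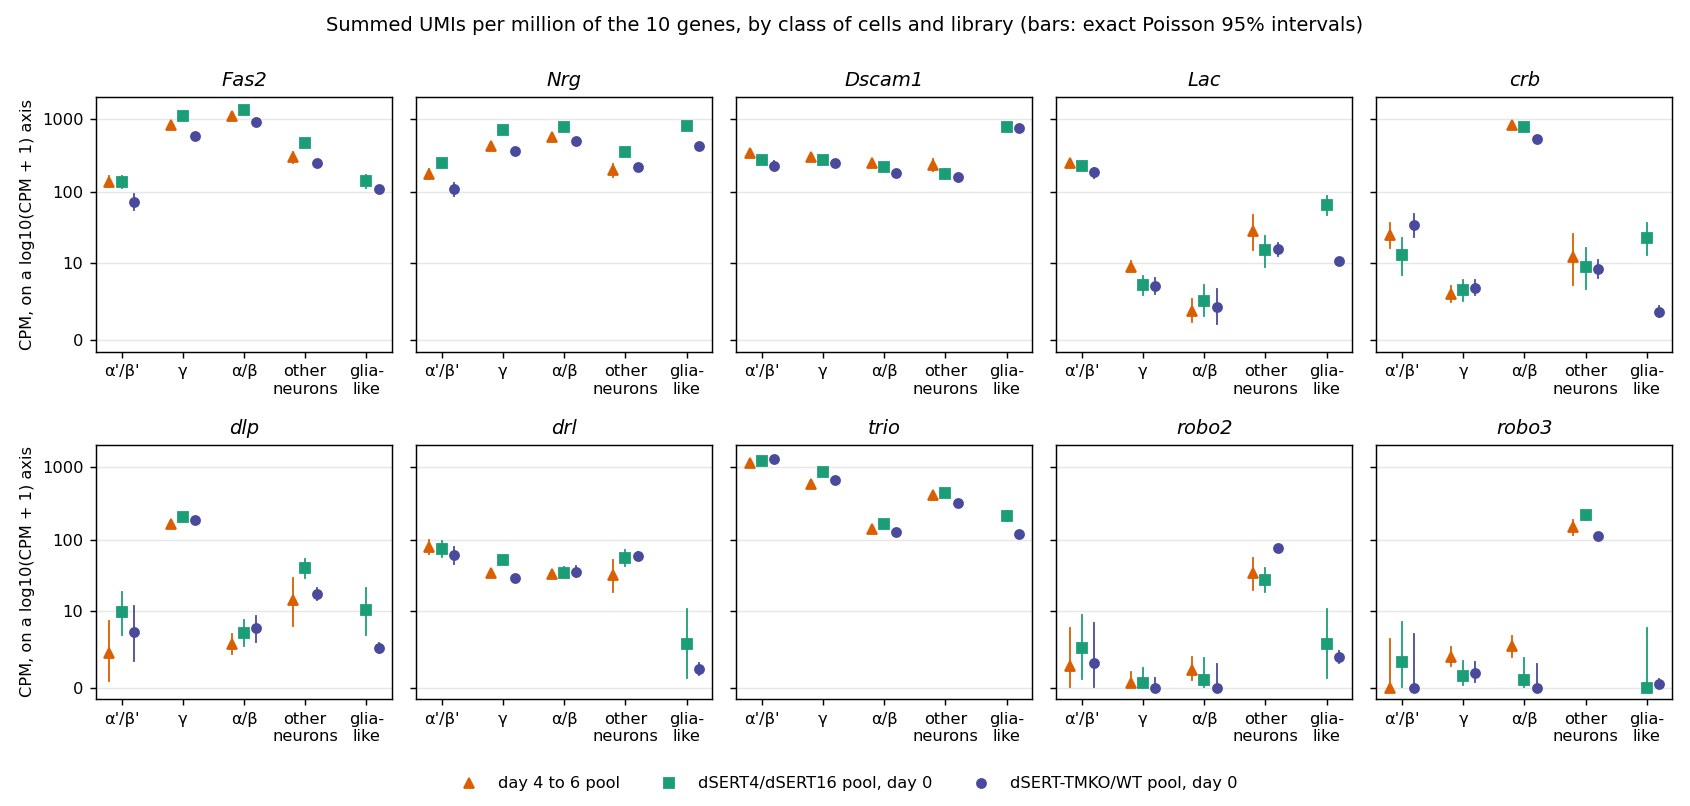
CPM (on a log10(CPM + 1) axis) of the 10 genes in α'/β', γ and α/β KCs, other neurons and glia-like cells of the 3 libraries, with exact Poisson 95% intervals that cover counting error only. Lac stands highest in α'/β' KCs, dlp in γ KCs and crb in α/β KCs, and robo2 and robo3 are near 0 in all KC subtypes.

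Fas2 and Nrg, both of the immunoglobulin superfamily of adhesion molecules, were lowest in α'/β' KCs. Fas2 (X:4132887-4206093, minus strand) encodes the homophilic adhesion molecule Fasciclin II and was the most abundant member, with 40655 UMIs over all KCs. Its level in α'/β' KCs was 140.7 CPM in the day 4 to 6 pool, 140.7 CPM in the dSERT4/dSERT16 pool and 74.1 CPM in the dSERT-TMKO/WT pool. The γ KCs of the same pools had 819.6, 1097 and 596.6 CPM, and the α/β KCs had 1100, 1344 and 900.2 CPM. Every α'/β' value lay below every γ and α/β value, while the γ and α/β ranges overlapped. Fas2 fell by 3.35 ± 0.12 (log2, SE) in α'/β' KCs relative to α/β KCs (edgeR, adjusted p = 6.6e-06) and fell by 2.91 ± 0.12 relative to γ KCs (adjusted p = 2.2e-05). In γ KCs relative to α/β KCs the log2 fold change was -0.44 ± 0.10 (edgeR, adjusted p = 0.025), lower in all 3 libraries but below the fold of 1.5 that a call required. A Fas2 UMI was found in 34.3%, 33.2% and 28.4% of α'/β' KCs, against 98.5%, 95.9% and 93.9% of α/β KCs. With each cell thinned to 1000 UMIs the shares were 12.4%, 14.2% and 6.90% of α'/β' KCs and 65.4%, 71.5% and 55.3% of α/β KCs.

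Nrg (X:8517373-8555170, plus strand) encodes Neuroglian, the fly L1-type adhesion molecule that binds Ankyrin at the membrane skeleton. Its order across subtypes was that of Fas2, with a smaller span. The α'/β' KCs had 179.1 CPM in the day 4 to 6 pool, 251.3 CPM in the dSERT4/dSERT16 pool and 111.1 CPM in the dSERT-TMKO/WT pool. In the same pools, γ KCs had 426.6, 705.3 and 370.5 CPM and α/β KCs had 576.2, 782.3 and 501.5 CPM. All α'/β' values were below all others, and the dSERT4/dSERT16 pool was the highest in each subtype. Nrg fell by 1.91 ± 0.12 (log2) in α'/β' KCs relative to α/β KCs (edgeR, adjusted p = 3.7e-05) and fell by 1.57 ± 0.11 relative to γ KCs (adjusted p = 0.00015). The log2 fold change of γ over α/β KCs was -0.34 ± 0.10, lower in 3 of 3 libraries, and did not pass the test (edgeR, adjusted p = 0.07).

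Dscam1 (2R:7317924-7381899, minus strand) encodes an immunoglobulin superfamily receptor with a very large number of splice forms, which lets sister branches of 1 axon recognise and avoid each other. It was close to even across the subtypes, and the counts do not tell its splice forms apart, of which the annotation lists 75 transcripts. Its levels were 345.5, 277.8 and 232.7 CPM in α'/β' KCs, 302.8, 278.0 and 251.8 CPM in γ KCs, and 250.7, 222.9 and 185.5 CPM in α/β KCs, each in the order day 4 to 6, dSERT4/dSERT16 and dSERT-TMKO/WT pool. No contrast reached a fold of 1.5. The log2 fold change was -0.07 ± 0.08 for α'/β' over γ KCs (edgeR, adjusted p = 0.61), 0.27 ± 0.08 for α'/β' over α/β KCs (adjusted p = 0.044) and 0.34 ± 0.08 for γ over α/β KCs (adjusted p = 0.022).

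Lac (2R:12453190-12465630, plus strand) encodes Lachesin, an immunoglobulin superfamily protein of the cell surface known from septate junctions. Among KCs it was high in α'/β' KCs alone. These had 255.9 CPM in the day 4 to 6 pool, 233.3 CPM in the dSERT4/dSERT16 pool and 187.5 CPM in the dSERT-TMKO/WT pool. The γ KCs had 8.93, 4.51 and 4.44 CPM, and the α/β KCs had 1.503, 2.40 and 1.79 CPM, the last from 12, 9 and 6 UMIs. The α'/β' values were separated from both other subtypes in every library. Lac rose by 6.90 ± 0.30 (log2) in α'/β' KCs relative to α/β KCs (edgeR, adjusted p = 1.4e-05) and by 5.15 ± 0.25 relative to γ KCs (adjusted p = 3.1e-05). The lower γ level was still above that of α/β KCs by 1.74 ± 0.32 (edgeR, adjusted p = 0.0088), with the day 4 to 6 pool the farthest apart, and this call was lost when the dSERT-TMKO/WT pool was left out (adjusted p = 0.054). Without the day 4 to 6 pool the log2 fold change was 1.12. A Lac UMI was found in 70.8%, 53.7% and 74.1% of α'/β' KCs. The shares were up to 4.60% in γ KCs and 0.851% in α/β KCs, both in the day 4 to 6 pool. Median depths there were 8238 and 6137 UMIs, and the pool had no glia-like cells. In glia-like cells the shares were 11.1% in the dSERT4/dSERT16 pool and 4.83% in the dSERT-TMKO/WT pool, at median depths of 3192.5 and 5843.5 UMIs. The γ KCs of these pools had 1.17% and 2.40%. Glia-like clusters were unlike: Lac was at 138.1 CPM in 74 cells led by asRNA:CR45131 in the dSERT4/dSERT16 pool. It was at 1.11 CPM in 1758 cells led by wun2 in the dSERT-TMKO/WT pool, below the γ KCs there. Glia express Lac themselves in flies, so these shares are not a pure measure of free RNA.

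The polarity gene crb (3R:24295078-24314541, plus strand) marked α/β KCs. It encodes Crumbs, the transmembrane determinant of the apical domain in epithelia, which binds the scaffold protein Stardust. The α'/β' KCs had 25.6, 13.2 and 35.9 CPM and the γ KCs 3.28, 3.76 and 4.16 CPM in the day 4 to 6, dSERT4/dSERT16 and dSERT-TMKO/WT pools, against 824.4, 789.0 and 536.3 CPM in the α/β KCs. The ranges of the 3 subtypes did not overlap. Relative to α/β KCs, crb fell by 7.57 ± 0.31 (log2) in γ KCs (edgeR, adjusted p = 1.0e-05) and fell by 4.93 ± 0.31 in α'/β' KCs (adjusted p = 4.1e-05). It was higher in α'/β' than in γ KCs by 2.64 ± 0.40 (edgeR, adjusted p = 0.0038), a difference that rests on 26, 11 and 31 UMIs in α'/β' KCs and was 1.33 (adjusted p = 0.118) without the removal of predicted doublets. A crb UMI was found in 97.1%, 91.3% and 86.9% of α/β KCs but in 2.13%, 1.12% and 2.06% of γ KCs. Glia-like cells had shares of 4.32% in the dSERT4/dSERT16 pool and 0.426% in the dSERT-TMKO/WT pool.

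The glypican gene dlp (3L:14632601-14671609, plus strand), whose product Dally-like is a heparan sulphate proteoglycan that binds Wnt and other ligands at the cell surface, was high in γ KCs. The γ KCs had 165.1, 204.2 and 184.7 CPM in the day 4 to 6, dSERT4/dSERT16 and dSERT-TMKO/WT pools. The α/β KCs had 2.88, 4.53 and 5.36 CPM, and the α'/β' KCs had 1.97, 9.62 and 4.63 CPM from 2, 8 and 4 UMIs. Every γ value was far above every other KC value, and the values of α'/β' and α/β KCs overlapped. dlp rose by 5.49 ± 0.24 (log2) in γ KCs relative to α/β KCs (edgeR, adjusted p = 1.1e-05) and fell by 5.25 ± 0.29 in α'/β' KCs relative to γ KCs (adjusted p = 5.1e-05). Without the dSERT4/dSERT16 pool it fell by 5.92 (log2) relative to γ KCs. Between α'/β' and α/β KCs the log2 fold change was 0.24 ± 0.41 (edgeR, adjusted p = 0.74), with too few UMIs to show a difference of that size. A dlp UMI was present in 64.8%, 44.3% and 65.3% of γ KCs, and thinned to 1000 UMIs per cell the shares were 16.1%, 17.8% and 15.9%. The thinned shares of the 3 pools were close, and the pool with the lowest raw share was the shallowest. In α/β and α'/β' KCs 1.46% to 3.45% of cells had a dlp UMI, beside 3.09% and 1.26% of glia-like cells in the dSERT4/dSERT16 and dSERT-TMKO/WT pools.

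Of the guidance receptors, drl was detected in every KC subtype, and robo2 and robo3 were at or near 0 in all of them. drl (2L:19190342-19208621, plus strand) encodes Derailed, a receptor of the Ryk family that binds Wnt5. Its levels were 80.7, 75.8 and 61.4 CPM in α'/β' KCs, 35.1, 53.6 and 29.7 CPM in γ KCs and 33.9, 35.5 and 36.6 CPM in α/β KCs of the day 4 to 6, dSERT4/dSERT16 and dSERT-TMKO/WT pools. The α'/β' values did not overlap with those of either other subtype, and the γ and α/β values did. drl rose by 0.93 ± 0.18 (log2) in α'/β' KCs relative to α/β KCs (edgeR, adjusted p = 0.0073) and by 0.82 ± 0.17 relative to γ KCs (adjusted p = 0.015). The second call was lost without the dSERT-TMKO/WT pool (edgeR, adjusted p = 0.070). For γ over α/β KCs the log2 fold change was 0.12 ± 0.16 (edgeR, adjusted p = 0.76).

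robo2 (2L:1380086-1420453, minus strand) and robo3 (2L:1256417-1296596, plus strand) encode Roundabout receptors for the repellent Slit, which place axons in lateral tracts of the embryonic nerve cord. Over all KCs of the 3 libraries robo2 had 14 UMIs and robo3 had 51, so both were removed by the filter on low counts and neither was tested between subtypes. robo2 stood at 0.984, 2.40 and 1.16 CPM in α'/β' KCs of the day 4 to 6, dSERT4/dSERT16 and dSERT-TMKO/WT pools, from 1, 2 and 1 UMIs, and at or below 0.751 CPM in γ and α/β KCs. The highest robo3 level in a KC subtype was 2.63 CPM, in α/β KCs of the day 4 to 6 pool, and it was 0 in α'/β' KCs of that pool and of the dSERT-TMKO/WT pool, where 3 UMIs would have been 2.95 and 3.47 CPM. Other neurons that passed the sort had robo3 at 150.3, 217.0 and 113.0 CPM and robo2 at 35.0, 28.1 and 76.6 CPM in the 3 pools. A robo3 UMI was found in 51.2%, 42.0% and 55.4% of these neurons, against at most 1.55% of the cells of any KC subtype and 0.0609% of glia-like cells of the dSERT-TMKO/WT pool. Median depths were 9946, 8205.5 and 14583 UMIs in the other neurons. In the dSERT4/dSERT16 pool robo3 was itself among the leading genes of 1 cluster of 38 neurons led by twz, Dh31 and Lim1, at 442.5 CPM, and 14 neurons led by twz and Lim1 in the day 4 to 6 pool had 230.4 CPM.

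trio (3L:995982-1034875, minus strand) encodes a guanine nucleotide exchange factor that activates Rac downstream of several guidance receptors. Its order across KC subtypes was the reverse of that of Fas2, although γ KCs were high in both. Its levels were 1119, 1172 and 1260 CPM in α'/β' KCs, 580.3, 834.0 and 652.4 CPM in γ KCs, and 140.1, 166.4 and 127.5 CPM in α/β KCs of the day 4 to 6, dSERT4/dSERT16 and dSERT-TMKO/WT pools. The 3 subtypes were fully separated, with α'/β' KCs highest and α/β KCs lowest in each library. trio rose by 2.94 ± 0.11 (log2) in α'/β' KCs relative to α/β KCs (edgeR, adjusted p = 9.5e-06), by 0.71 ± 0.11 in α'/β' KCs relative to γ KCs (adjusted p = 0.0038) and by 2.24 ± 0.11 in γ KCs relative to α/β KCs (adjusted p = 2.1e-05). A trio UMI was found in 92.7%, 95.8% and 100% of α'/β' KCs, against 51.1%, 43.8% and 45.2% of α/β KCs. Thinned to 1000 UMIs, the shares were 66.4%, 66.8% and 67.2% of α'/β' KCs and 13.5%, 15.4% and 11.9% of α/β KCs.

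**Figure D2:**
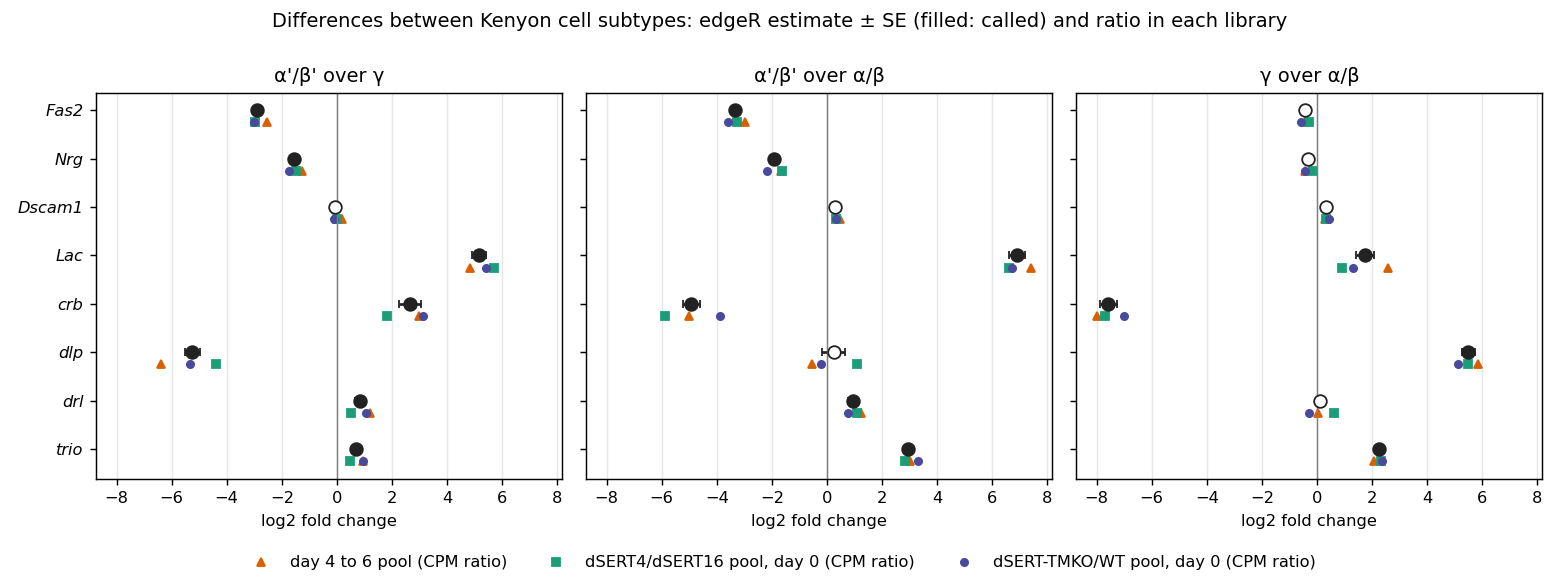
Log2 fold changes of the 8 tested genes between KC subtypes: the edgeR estimate ± SE in black (filled where called) and the CPM ratio in each of the 3 libraries in colour. The estimates for crb run between -7.57 and 2.64, those for Lac between 1.74 and 6.90, and Dscam1 is called in no contrast.

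Counted over the 8 tested members, 3 were higher and 3 lower in α'/β' KCs than in α/β KCs, where 8.83% and 9.03% of all 6852 genes were called higher and lower. In α'/β' KCs relative to γ KCs, 4 were higher and 3 lower, beside 6.16% and 6.70% of all genes. In γ KCs relative to α/β KCs, 3 were higher (trio, dlp and Lac) and 1 lower (crb), beside 5.66% and 5.37% of all genes. The median size of the log2 fold change was 2.43, 2.10 and 1.09 for the 8 members in these contrasts, against 0.33, 0.30 and 0.21 over all genes. The members were picked as genes known from the lobes and with earlier results of these data known. These counts therefore describe them and are no test of the group. Not every member of a structural class went the same way: of the immunoglobulin superfamily genes, Fas2 and Nrg fell and Lac rose in α'/β' KCs relative to both other subtypes, and Dscam1 was not called. In the day 4 to 6 pool, the α'/β' cluster had, beside DAT and CG8641, the glial genes Obp44a and Gs2 among its leading genes, and CG40470, which also led glia-like clusters of both other pools. In a further fit, KCs that held 10 or more UMIs of repo, Eaat1, Gat, alrm and Gs2 together were left out. Of these α'/β' KCs 123 of 137 remained, and every call of the 8 members was as before. Obp44a and CG40470 were not counted and cells with fewer such UMIs stayed, so glial RNA can remain in the cluster.

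The list of 71 further adhesion and guidance genes was read from the same fit, and 65 of them were tested. In α'/β' KCs relative to α/β KCs 8 were called higher and 14 lower, in α'/β' KCs relative to γ KCs 6 and 12, and in γ KCs relative to α/β KCs 12 and 6. The median size of the log2 fold change of the list was 0.45, 0.50 and 0.39. Over the 3 contrasts, 29 of 65 were called at least once, beside 23.8% of all genes. The list too was chosen with earlier results of these data known, so its counts are a description and no test. Immunoglobulin adhesion genes were called most often, with 7 of 8, beside 7 of 9 other adhesion genes, 3 of 5 receptor tyrosine phosphatases and 3 of 7 semaphorin and plexin genes. Neither Eph nor Ephrin was called.

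Several of these genes belong to the pathway of a member. Drl-2, a further Ryk family receptor, averaged 324.6 ± 84.3 CPM in α'/β' KCs, 74.2 ± 15.6 CPM in γ KCs and 30.3 ± 12.6 CPM in α/β KCs, and rose by 3.32 ± 0.23 (log2) in α'/β' KCs relative to α/β KCs (edgeR, adjusted p = 6.6e-05). Like drl, it was highest in α'/β' KCs. Of the Wnt and planar polarity receptors on the list 3 of 7 were called, and not all went this way. In the day 4 to 6, dSERT4/dSERT16 and dSERT-TMKO/WT pools otk had 37.8, 30.4 and 44.7 CPM in α/β KCs. The α'/β' KCs had 9.84, 15.6 and 6.95 CPM of otk. Sdc encodes Syndecan, a transmembrane heparan sulphate proteoglycan. It averaged 269.6 ± 55.0 CPM in α'/β' KCs, 1019 ± 25.4 CPM in γ KCs and 357.3 ± 44.9 CPM in α/β KCs, and so was highest in γ KCs, as dlp was. It rose by 1.52 ± 0.13 (log2) in γ KCs relative to α/β KCs (edgeR, adjusted p = 0.00024). Of the heparan sulphate proteoglycan genes on the list, Sdc was the 1 of 3 called. sdt encodes Stardust, the partner of Crumbs, and unlike crb it was abundant in both other subtypes as well: it averaged 846.0 ± 201 CPM in α'/β' KCs, against 1636 ± 397 CPM in α/β KCs, and fell by 1.05 ± 0.07 (log2; edgeR, adjusted p = 4.5e-05), and it was not called between γ and α/β KCs. Of the L1 anchor genes, alpha-Spec and beta-Spec were called in at least 1 contrast and Ank2 was not.

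The semaphorin and plexin genes called were Mical, Sema1a and Sema2b, and of the Netrin genes 1 of 3 was called, unc-5. Mical, an oxidoreductase that takes actin filaments apart downstream of plexins, averaged 417.0 ± 53.6 CPM in α'/β' KCs and 387.7 ± 71.3 CPM in γ KCs, against 66.7 ± 8.48 CPM in α/β KCs. It rose by 2.55 ± 0.08 (log2) in α'/β' KCs and by 2.53 ± 0.08 in γ KCs relative to α/β KCs (edgeR, adjusted p = 4.9e-06 and 2.9e-06). The secreted semaphorin Sema2b was higher in γ than in α/β KCs by 1.86 ± 0.10 and in α'/β' than in α/β KCs by 1.15 ± 0.11. unc-5, a repulsive Netrin receptor, averaged 4.16 ± 2.66 CPM in α'/β' KCs, against 46.7 ± 8.74 CPM in γ KCs and 80.1 ± 6.47 CPM in α/β KCs, and fell by 4.40 ± 0.29 (log2) in α'/β' KCs relative to α/β KCs (edgeR, adjusted p = 5.4e-05). Among adhesion genes, Toll-7 was highest in γ KCs, with 74.7 ± 21.1 CPM in γ KCs against 4.72 ± 1.81 CPM in α/β KCs (log2 fold change 3.95 ± 0.24; edgeR, adjusted p = 4.2e-05), and kirre was highest in α/β KCs, with 44.0 ± 19.2 CPM in α'/β' KCs against 369.5 ± 128 CPM in α/β KCs (-3.15 ± 0.27; adjusted p = 0.00020). Ptp99A, a receptor tyrosine phosphatase, averaged 591.2 ± 114 CPM in α'/β' KCs, 348.7 ± 43.5 CPM in γ KCs and 1254 ± 139 CPM in α/β KCs. It was called in all 3 contrasts, with log2 fold changes of -1.20 ± 0.13 (α'/β' over α/β), 0.66 ± 0.13 (α'/β' over γ) and -1.86 ± 0.13 (γ over α/β).

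**Figure D3:**
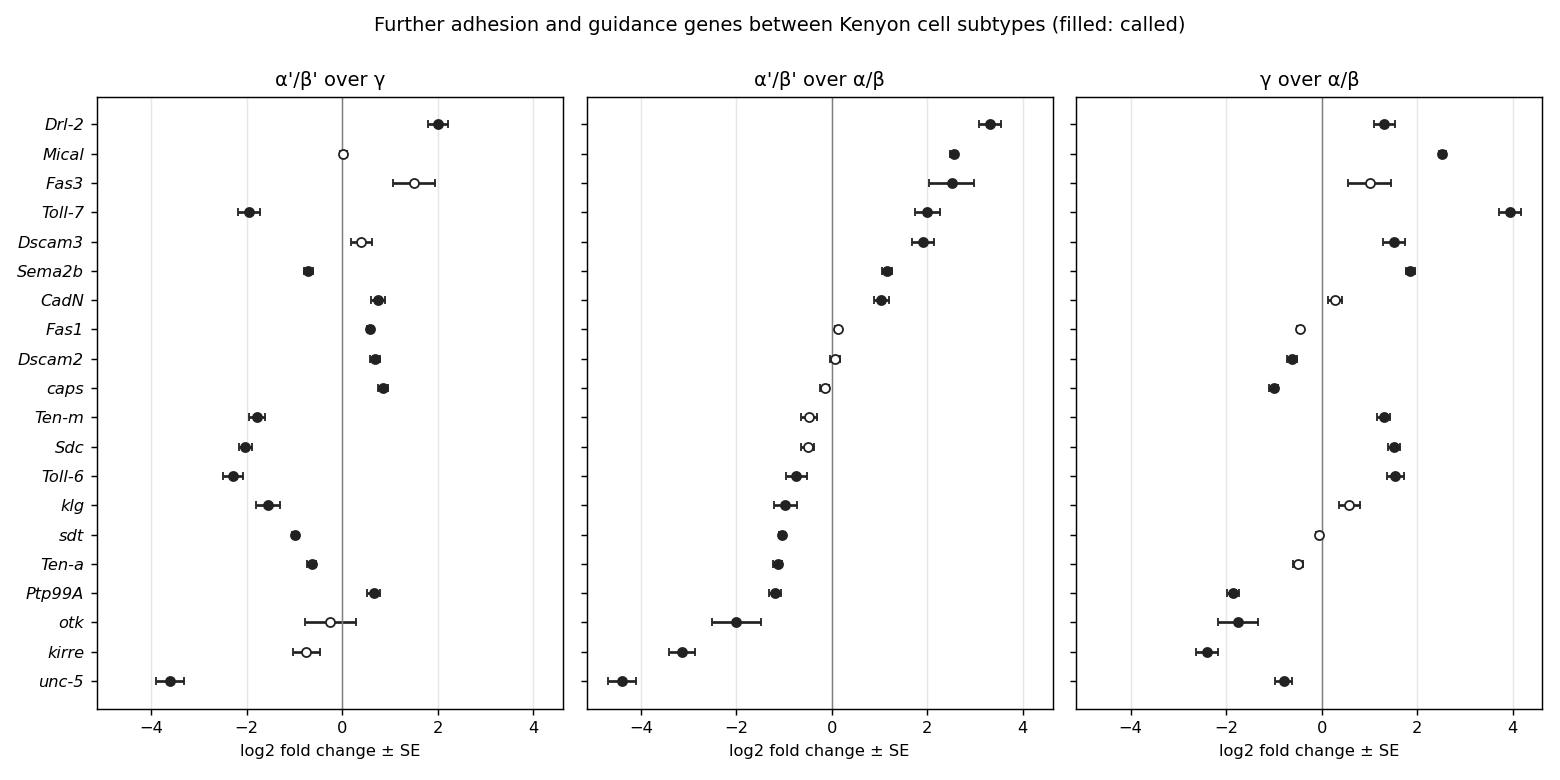
Log2 fold changes (edgeR estimate ± SE) of the 20 further adhesion and guidance genes with the largest called differences, in the 3 contrasts between KC subtypes, filled where called. In α'/β' over α/β KCs they run from unc-5 at -4.40 to Drl-2 at 3.32.

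Within subtypes, members differed between clusters that recurred in all 3 libraries. These clusters were chosen after their values were seen, and the ratios, with exact 95% counting intervals, are descriptions. γ KCs led by the receptor gene hec and the nuclear factor gene danr numbered 312, 279 and 314 in the day 4 to 6, dSERT4/dSERT16 and dSERT-TMKO/WT pools, against 1187, 1601 and 1145 other γ KCs. They had more Fas2, with ratios to the other γ KCs of 1.44 (1.38 to 1.51), 1.59 (1.5 to 1.69) and 1.18 (1.11 to 1.25). They had less dlp, with ratios of 0.686 (0.601 to 0.780), 0.649 (0.528 to 0.791) and 0.558 (0.483 to 0.642). drl was lower still, at 15.5, 21.8 and 14.7 CPM against 39.7, 57.9 and 33.0 CPM in the other γ KCs. All 3 libraries thus gave the same direction against the sum of the other γ KCs. Single clusters among these others were not all lower in Fas2: the γ cluster led by mitochondrial genes in the day 4 to 6 pool had 1079.9 CPM, beside 1089 CPM in the hec-led cells, and 19 γ KCs led by Tektin-C in the dSERT-TMKO/WT pool had 941.5 CPM, beside 680.1 CPM in the hec-led cells. Lac was at 24.9 CPM in the hec-led cells of the day 4 to 6 pool, against 5.20 CPM in the other γ KCs, while the day 0 pools had 5.12 and 7.60 CPM against 4.43 and 3.73 CPM. The few robo3 UMIs of γ KCs lay mostly in the hec-led cells of the day 4 to 6 and dSERT-TMKO/WT pools. The hec-led cells had 7.55, 1.28 and 3.04 CPM in the 3 pools, from 17, 1 and 6 UMIs. Other γ KCs had 0.208, 0.340 and 0 CPM.

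α/β KCs led by rn, a zinc finger transcription factor gene, numbered 111, 137 and 44, against 1182, 813 and 560 other α/β KCs in the same order of libraries. drl was at 9.26, 17.0 and 0 CPM in them, against 36.9, 39.3 and 40.1 CPM in the other α/β KCs. The dSERT-TMKO/WT pool had no drl UMI in its 44 cells, and the upper limit of the ratio there was 0.323. Nrg was lower in the rn-led cells of each library, with ratios of 0.719 (0.644 to 0.800), 0.665 (0.593 to 0.742) and 0.720 (0.586 to 0.876). It was lower still, at 345.9 CPM beside 427.2 CPM in the rn-led cells, in 139 other α/β KCs of the day 4 to 6 pool led by Lgr1 and CrebA. The crb ratios were 0.722, 0.787 and 0.915, and the interval of the last, 0.766 to 1.09, included 1. Fas2 ratios were 1.10, 0.915 and 1.07, with no common direction.

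**Figure D4:**
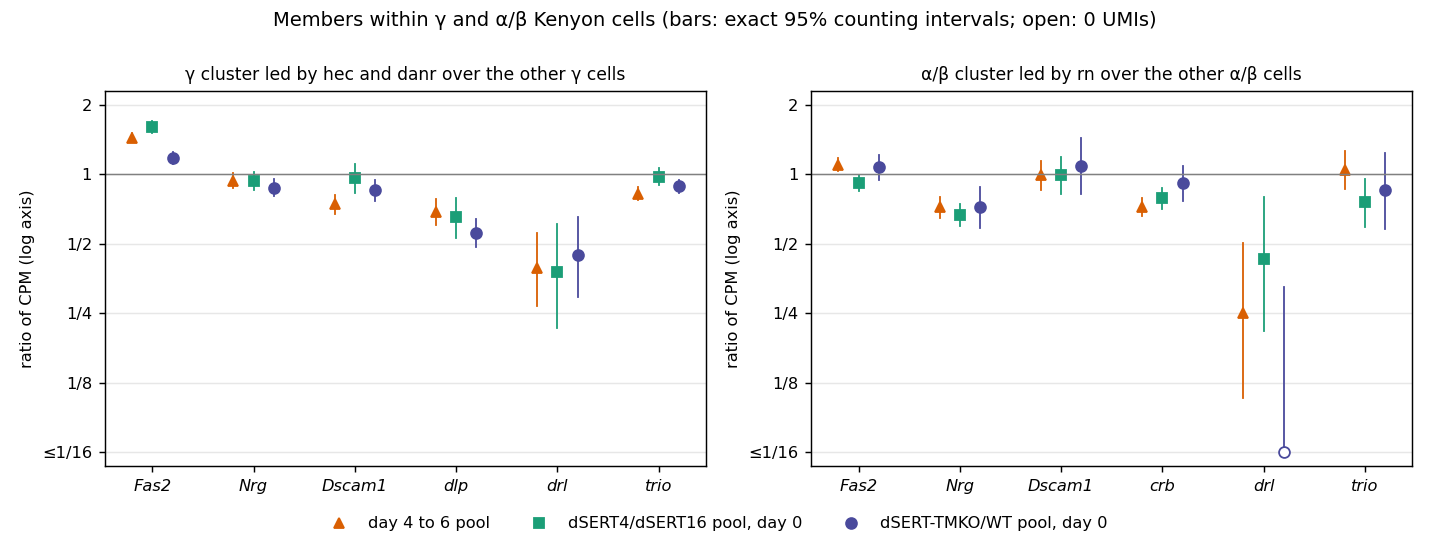
Ratio of CPM (log axis) between γ KCs led by hec and danr and the other γ KCs (left) and between α/β KCs led by rn and the other α/β KCs (right), per library, with exact 95% counting intervals; the open symbol marks 0 UMIs, and members with low counts (Lac, robo2, robo3, crb on the left and dlp on the right) are not plotted. Of the genes plotted drl has the lowest ratios, from 0.376 to 0.445 on the left and from 0 to 0.431 on the right.

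Between pools there was 1 library on each side, so ratios are given with counting intervals and no test, and age, feeding, genotype mix, strain and library cannot be told apart. Members with at least 20 CPM in either pool were counted past a ratio of 1.5. In the day 4 to 6 pool relative to the dSERT-TMKO/WT pool at day 0, 2 of 7 members passed it in α'/β' KCs, where 30.0% of all genes did: Fas2, at a ratio of 1.90 (1.41 to 2.59), and Nrg, at 1.61 (1.25 to 2.09). Of 6 members in α/β KCs 1 passed, crb, beside 20.3% of all genes, with 824.4 CPM in the day 4 to 6 pool and 536.3 CPM in the dSERT-TMKO/WT pool, a ratio of 1.54 (1.46 to 1.62). None of 6 (0 of 6) passed in γ KCs, beside 14.9% of all genes, and the ratios lay between 0.890 for trio and 1.37 for Fas2. None of these shares was above that of all genes.

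The dSERT4/dSERT16 pool against the dSERT-TMKO/WT pool, both at day 0, gave at least as many. There, 3 of 6 members passed in γ KCs, Fas2 at a ratio of 1.84 (1.78 to 1.90), Nrg at 1.90 (1.82 to 1.99) and drl at 1.81 (1.55 to 2.11), beside 23.1% of all genes. Nrg was the 1 of 6 past it in α/β KCs, at 1.56 (1.47 to 1.66), beside 20.7% of all genes, and Fas2 was just short of it at 1.49 (1.43 to 1.56). Fas2 at 1.90 (1.39 to 2.62) and Nrg at 2.26 (1.77 to 2.91) were higher and crb at 0.369 (0.167 to 0.753) was lower in α'/β' KCs, 3 of 7 beside 31.1% of all genes. Fas2 and Nrg were thus higher in both other pools than in the dSERT-TMKO/WT pool in all 3 subtypes. The pools that were compared share the dSERT-TMKO/WT library, which also had the lowest share of KCs, and the dSERT4/dSERT16 pool had the lowest depth and ribosomal share. Their part in these ratios was not tested.

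**Figure D5:**
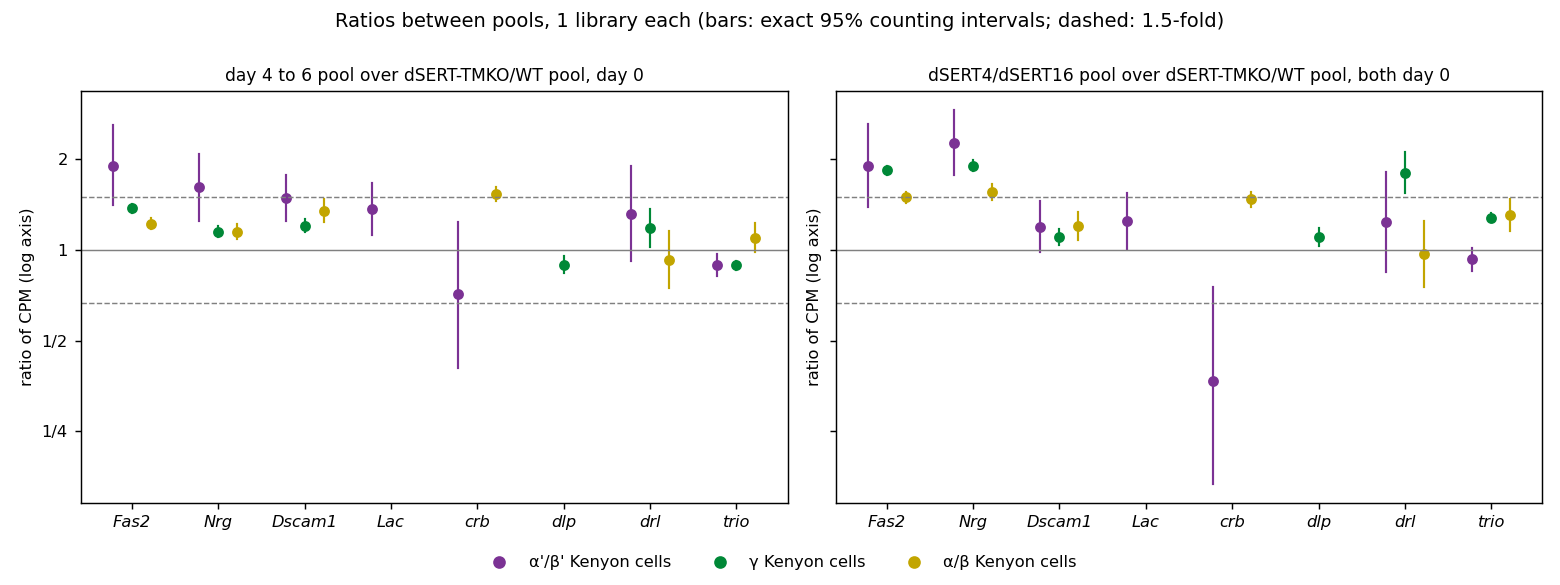
Ratio of CPM (log axis) of members with at least 20 CPM in α'/β', γ and α/β KCs of the day 4 to 6 pool (left) and of the dSERT4/dSERT16 pool (right) over the dSERT-TMKO/WT pool at day 0, 1 library each, with exact 95% counting intervals and dashed lines at 1.5-fold. Fas2 and Nrg lie above 1 in both panels in every subtype, between 1.15 and 2.26.

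Outside the KCs, Fas2, trio and drl were lower in every glia-like cluster than over all KCs of the same pool, while Nrg and Dscam1 differed widely between these clusters. Fas2 was at 893.8, 1109 and 634.4 CPM over all KCs of the day 4 to 6, dSERT4/dSERT16 and dSERT-TMKO/WT pools, against 302.7, 467.0 and 251.0 CPM in other neurons. Glia-like cells had 143.0 and 110.6 CPM in the dSERT4/dSERT16 and dSERT-TMKO/WT pools. The α'/β' KCs of these 2 pools, taken alone, were no higher, at 140.7 and 74.1 CPM. Summed over glia-like cells, Dscam1 and Nrg were higher than in KCs: KCs of these 2 pools had 259.6 and 235.9 CPM of Dscam1, against 772.6 and 744.3 CPM in the glia-like cells, and 697.4 and 384.9 CPM of Nrg, against 813.8 and 426.0 CPM. The sums hide unlike clusters. In the dSERT4/dSERT16 and dSERT-TMKO/WT pools, glia-like clusters ranged from 320.0 to 1209 CPM and from 249.4 to 1173 CPM of Dscam1, and from 184.5 to 932.0 CPM and from 51.9 to 949.6 CPM of Nrg. The lowest Nrg levels were those of the clusters in which 6 of 8 glial markers were detected, 16 cells led by alrm and 1758 cells led by wun2, and lay below the KCs. The lowest Dscam1 level of the dSERT-TMKO/WT pool was that of 553 cells with 3 glial markers whose leading genes, Nplp3, CG7203 and Acp1 among them, are not glial markers. drl was at 49.2 and 33.1 CPM in KCs, against 2.95 and 0.768 CPM in glia-like cells. trio was at 636.3 and 570.1 CPM in KCs, against 212.3 and 119.5 CPM in glia-like cells. The α/β KCs alone had 166.4 and 127.5 CPM of trio. This was below the glia-like cells in the dSERT4/dSERT16 pool and close to them in the dSERT-TMKO/WT pool.

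The genes whose levels ran most like those of a member were found by Pearson's r of log2(CPM + 1) over 14 sums of classes and libraries with at least 50 cells, among 6041 genes. Sums of 1 library share its flies, depth and free RNA, and r describes these sums only. trio was most like cno (r = 0.979), which encodes the adherens junction linker Canoe, and next like Mical (r = 0.947). crb was most like the noncoding lncRNA:CR44598 (r = 0.904), dlp like the receptor gene Lgr3 (r = 0.863) and Lac like Rab19 (r = 0.917). Fas2 was most like CG13054 (r = 0.850), Nrg like CG4297 (r = 0.859), Dscam1 like 26-29-p (r = 0.972) and drl like FucTA (r = 0.991). robo3 was most like lncRNA:CR45333 (r = 0.973) and robo2 like salr (r = 0.959). Between members, r was -0.845 for Fas2 and Lac, -0.345 for Fas2 and trio, 0.652 for Fas2 and Nrg, 0.878 for robo2 and robo3 and -0.882 for Dscam1 and drl. The 14 sums include other neurons, where both robo genes were highest. They also include glia-like and unnamed cells, with 744.3 to 1073 CPM of Dscam1 and 0.768 to 2.95 CPM of drl. No r was computed over KC sums alone.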

How the data were processed

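The matrices are Cell Ranger 7.0.0 output. The authors deposited raw UMI counts per gene and barcode, with replicates pooled in each library. Strain assignment was not used here. The authors' tables, 4 in all, hold a log2 fold change, a p-value, an adjusted p-value and its -log10 per gene and cell type, which were deposited as results of their DESeq2 comparisons. Those values were not used. Total counts per library were 21831009 in the day 4 to 6 pool, 13183480 in the dSERT4/dSERT16 pool and 61833329 in the dSERT-TMKO/WT pool.

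Cells under 1000 UMIs or over 20% mitochondrial UMIs were left out, and Scrublet doublets were removed (26, 5 and 326 cells). Each library was clustered with scanpy 1.11.5 (2000 variable genes without members and list genes, 10 components, 20 neighbours, Leiden resolution 0.3), and KCs were clustered again. A cluster was a KC cluster with 5 of 8 KC markers detected (a UMI in 25% of cells), and otherwise glia-like or other neurons with 3 markers, unless its 10 leading genes went against the name. These thresholds were set after clusters had been seen. Summed counts were fitted with edgeR 4.0.16 (TMM, filterByExpr, Benjamini-Hochberg over 6852 genes), which was tested on simulated data. DESeq2 1.42.0 was an alternative. Intervals are 95%, exact Poisson or binomial, and cover counting error only.

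All 10 members are named in every class. List genes are named where called, at 20 CPM or more and with the largest change, at most 6 per direction and contrast. For likeness, the 3 most similar genes were found and the first is given, with further ones where named. The members and lists were chosen with earlier results of these data known. Gene positions come from the Ensembl annotation of BDGP6, the dm6 assembly of the authors' reference.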

Additional observations from a re-analysis of the deposited data

Results flagged for a closer look

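Members stood above every KC subtype in unnamed cells of the dSERT-TMKO/WT pool, which entered no comparison between classes and, of the values above, only the sums behind the likeness between genes. Fas2 was at 4632 CPM (4480 to 4788, exact Poisson 95% interval) in 124 cells led by CG4797 and CG6910, against 900.2 CPM in the highest KC subtype of that pool. In 931 unnamed cells led by CG9377, with Mmp1 and Col4a1 among their leading genes, Nrg was at 741.6 CPM (720.3 to 763.3), against at most 501.5 CPM in a KC subtype, and Dscam1 was at 1189 CPM (1162 to 1217), against at most 251.8 CPM. These levels were not particular to the 931 cells, which had 3 glial markers detected. Glia-like clusters of that pool reached 949.6 CPM of Nrg and 1173 CPM of Dscam1.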

How the results depend on the processing

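No member's called difference between subtypes changed direction under any alternative. The count of members called kept within 1.5 times in 47 of 48 cases, over the alternatives in each of 3 contrasts. Without the library block it was 4 in α'/β' over γ KCs, against 7, as trio (adjusted p = 0.122), Nrg (0.054) and drl (0.128; all edgeR) were lost. Without the block the list genes called numbered 10 in γ over α/β KCs, 14 in α'/β' over α/β KCs and 10 in α'/β' over γ KCs, against 18, 22 and 18, and with no fold minimum 31 in the last. Leaving out 1 library gave 3 to 4, 6 and 6 to 7 members called in γ over α/β, α'/β' over α/β and α'/β' over γ KCs, and 12 to 22, 19 to 20 and 12 to 24 list genes. All genes called numbered 756, 1224 and 881, and 421, 661 and 388 without the block. Leaving out 1 library gave 438 to 971, 856 to 1275 and 517 to 1021. The counts of 438 and 517 were without the dSERT4/dSERT16 pool, and without the dSERT-TMKO/WT pool the last count was 562. At an adjusted p of at most 0.01 drl was lost in α'/β' over γ KCs. DESeq2 changed no member's call.

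Counts of members past 1.5-fold between pools were small and moved more. In the day 4 to 6 pool over the dSERT-TMKO/WT pool, the count in γ KCs was 3 without a filter on low values, against 0. It was, in α/β KCs, 0 at resolution 1.0, 0 at a fold of 2 and 4 without the filter, against 1. For α'/β' KCs it was 1 with no doublets removed, 1 with a mitochondrial maximum of 10%, 1 at resolution 1.0, 1 with members among the variable genes, 1 without cells with glial UMIs (chosen after seeing the data), 4 with the mean of per-cell CPM and 0 at a fold of 2, against 2. In the dSERT4/dSERT16 pool over the dSERT-TMKO/WT pool, a fold of 2 gave 0 in γ KCs, against 3. For α/β KCs per-cell means gave 3, a fold of 2 gave 0, no filter gave 3 and ratios over the median gene (chosen after seeing the data) gave 3, against 1. For α'/β' KCs no filter gave 6, against 3. The causes were not tested. With 3 pools and 116 to 190 α'/β' KCs in each, the low values of dlp, crb, robo2 and robo3 there rest on few UMIs.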
